A study of Saccharomyces cerevisiae with 12 samples.

Results

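The genes described here encode proteins of the small-subunit processome and of the steps that make 18S ribosomal RNA (rRNA) in budding yeast. A list of systematic names chose them, by no rule on a measured value, though earlier results of these data were known. All 50 were found among the 6650 genes of the files, and all 50 passed the filter on low values (coverage of 10 or more in 2 or more libraries). They lie on 14 chromosomes, 29 on the Watson strand and 21 on the Crick strand. Their length runs from 381 bp for SNU13 to 7482 bp for UTP20. Members whose values fitted an average over only a stretch up to 300 bp numbered 0.

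The assay for RNA polymerase II (Pol II) was ChIP-seq, chromatin immunoprecipitation followed by sequencing, with the antibody 4H8, which binds the repeated tail of the largest polymerase subunit. The 3 groups are W303 strains of mating type alpha, grown in glucose medium to a low density and fixed with formaldehyde. Each has 2 Pol II libraries and 2 libraries of input DNA, made from biological replicates according to the labels. The strains share the markers ura3-1, trp1-delta, ade2-1 and his3-11,15, and a leu2-3 allele that the label of 1 strain spells differently from the others.

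In every strain, controls included, the chromosomal PCF11 gene is replaced by TRP1 (pcf11-delta::TRP1), and PCF11 comes from a LEU2 plasmid. WT cells carry pRS325-LEU2-V5-PCF11-MYC, Pcf11-13 cells carry pRS325-LEU2-pcf11-13, and Pcf11-DNL cells carry pRS325-LEU2--V5-pcf11-deltaN-linkMYC. The V5 and MYC tags are named for WT and Pcf11-DNL and not for Pcf11-13, so the pcf11-13 allele and the tags cannot be told apart in the comparisons with Pcf11-13. The series text writes Pcf11-dQN where the sample titles have Pcf11-DNL. Pcf11 is a subunit of a factor that cleaves pre-mRNA at its 3′ end and helps Pol II to terminate.

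The small-subunit processome is a large particle that forms on the nascent ribosomal precursor in the nucleolus. Its core is the U3 small nucleolar RNA, a box C/D RNA that base-pairs with the precursor. The subcomplexes UTP-A and UTP-B bind first to the 5′ end of the precursor, and the Mpp10 complex, methyltransferases, RNA helicases and many single factors join or act later, until cleavage frees the precursor of 18S rRNA. The genes of these proteins are transcribed by Pol II, whereas the ribosomal precursor itself is made by Pol I, and in yeast they are known to be controlled together with cell growth.

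Coverage is the mean number of reads over a base of a gene. Levels are compared between genes of different length on the assumption that all genes were averaged alike, which the sources used here do not state. Coverage was divided by a scaling factor for each library, and this scaled coverage is used throughout. A Pol II to input ratio sets the scaled Pol II coverage of a gene over its scaled input coverage, and is given as a fold over the median gene of the same replicate. Reads behind a value are not known, so no counting interval is given.

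In WT cells Pol II stood above the median gene over nearly all processome genes. Their median Pol II to input ratio was 1.66-fold over the median gene, with 1.56-fold in replicate 1 and 1.72-fold in replicate 2. Of the 50 genes, 47 (94%) lay above the median gene. Far fewer were strongly occupied: 7 of 50 (14%) were more than 2-fold above it, beside 13.1% of the 6641 genes with a ratio. The ratios ran from 0.76-fold for DHR2 to 5.92-fold for SNU13, and the spread between the 2 WT replicates had a median SD of 0.098 on the log2 scale, with a highest SD of 0.20.

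**Figure D1:**
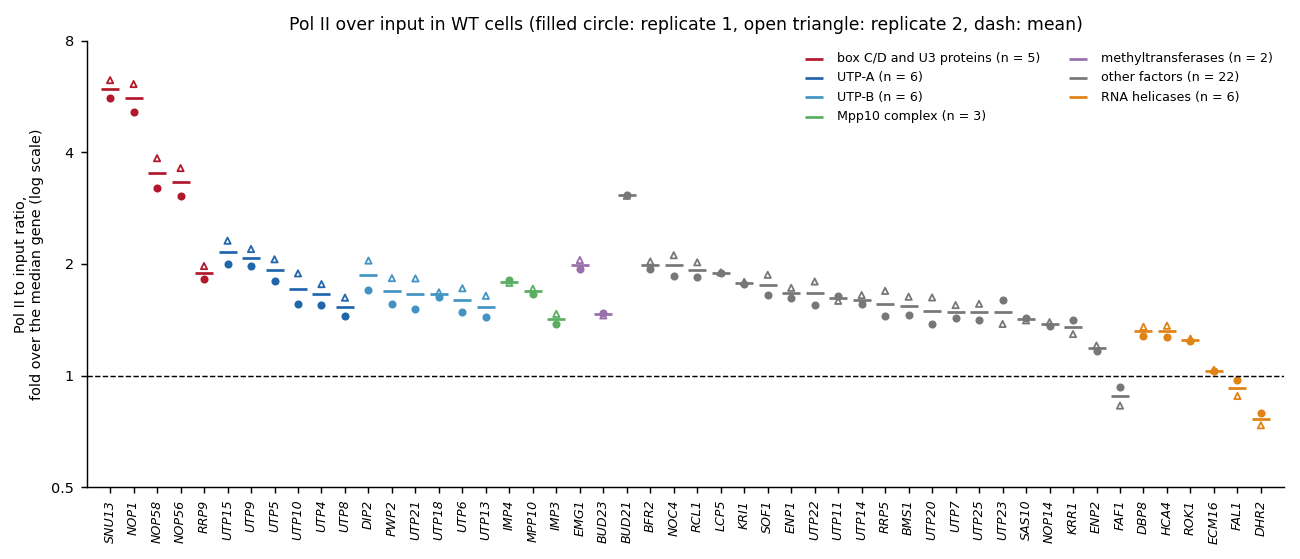
Pol II to input ratio of the 50 genes in WT cells, as fold over the median gene on a log axis, by role and ordered by the mean within each role. Filled circles are replicate 1, open triangles replicate 2 and dashes the mean of 2; SNU13 at 5.92-fold and NOP1 at 5.61-fold stand highest, and DHR2 at 0.76-fold lowest.

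The genes for the proteins of box C/D small nucleolar particles carried the most Pol II of the 50. SNU13 (YEL026W, chromosome V, 101943 to 102323) encodes the protein that binds the kink-turn of box C/D RNAs and also takes part in the splicing machinery. Its scaled Pol II coverage was 792 and 905 in WT, then 843 and 806 in Pcf11-13, then 882 and 786 in Pcf11-DNL. The 3 genotypes overlapped, and SNU13 stood first of the 50 in each of them.

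NOP1 (YDL014W, chromosome IV, 427364 to 428347) encodes fibrillarin, the methyltransferase of these particles. Its scaled Pol II coverage was 662 and 802 in WT, then 669.8 and 641 in Pcf11-13, then 698 and 642 in Pcf11-DNL. WT replicate 2 was the high library, and the other 5 ran from 641 to 698. The WT ratio of NOP1 was 5.61-fold over the median gene (log2 2.49 ± 0.17, SD, n = 2), beside log2 2.56 ± 0.12 for SNU13.

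NOP58 (YOR310C, chromosome XV, 896825 to 898360) and NOP56 (YLR197W, chromosome XII, 546097 to 547611) encode the paired scaffold proteins of the same particles. Scaled Pol II coverage of NOP58 was 383 and 457 in WT, then 382 and 430.2 in Pcf11-13, then 433 and 368 in Pcf11-DNL. For NOP56 it was 333 and 389, then 319 and 359, then 373 and 307. In both genes each genotype held a low and a high library, and the 3 genotypes overlapped. Their WT ratios were 3.51-fold and 3.32-fold.

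RRP9 (YPR137W), which encodes a protein of the U3 particle alone, was well below the other 4 box C/D and U3 genes, with a WT ratio of 1.89-fold. The only other gene near them was BUD21 (YOR078W, chromosome XV, 472725 to 473369), a processome factor also called UTP16. BUD21 had a scaled Pol II coverage of 412 and 431 in WT, then 383 and 418 in Pcf11-13, then 431 and 376 in Pcf11-DNL, and a WT ratio of 3.06-fold. The same 5 genes, SNU13, NOP1, NOP58, NOP56 and BUD21, held ranks 1 to 5 in this order in all 3 genotypes.

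The scaffold subcomplexes formed a narrow middle band. The 6 UTP-A genes, whose products make the first subcomplex on the precursor, had a median WT ratio of 1.82-fold and ran from 1.53-fold for UTP8 to 2.15-fold for UTP15 (YMR093W). The 6 UTP-B genes had a median of 1.66-fold, from 1.54-fold for UTP13 to 1.86-fold for DIP2 (YLR129W), the gene of Utp12. All 12 lay above the median gene, and within each subcomplex neighbours in the order differed by less than the larger replicate SD of the pair, which reached 0.20 on the log2 scale for UTP21 and UTP10.

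The 3 genes of the Mpp10 complex, which docks on the U3 RNA, had WT ratios of 1.79-fold for IMP4, 1.69-fold for MPP10 and 1.42-fold for IMP3. Of the methyltransferase genes, EMG1 (YLR186W) stood at 1.99-fold and BUD23 (YCR047C) at 1.46-fold. The 22 other factors had a median of 1.58-fold. Among them NOC4, a nucleolar complex protein, and BFR2 had 1.98-fold each, the cyclase-like RCL1 1.93-fold, the GTPase BMS1 1.54-fold, and the very large scaffold gene UTP20 1.5-fold.

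The helicase genes carried the least Pol II of the roles. Their products unwind or release pre-rRNA and U3 RNA, and their median WT ratio was 1.14-fold. DBP8 and HCA4 stood at 1.32-fold and ROK1 at 1.25-fold, whereas ECM16, the gene of Dhr1, stood at 1.03-fold. Below the median gene were 3 of the 50 genes, the helicase genes DHR2 and FAL1 and the factor gene FAF1.

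DHR2 (YKL078W, chromosome XI, 288845 to 291052) had a scaled Pol II coverage of 96.7 and 94.6 in WT, then 89.0 and 88.4 in Pcf11-13, then 96.6 and 101 in Pcf11-DNL. It was last of the 50 in all 3 genotypes, with a WT ratio of log2 -0.39 ± 0.08 (SD, n = 2). FAF1 followed with log2 -0.18 ± 0.12 and FAL1 with log2 -0.11 ± 0.10, a difference within the spread of their replicates. Ranks 45 to 50 were held by ROK1, ENP2, ECM16, FAL1, FAF1 and DHR2, in this order, in all 3 genotypes.

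The order of the genes was thus much the same in every library. Over the 15 pairs of Pol II libraries, the log2 Pol II to input ratios of the 50 genes had a Pearson r of 0.975 to 0.994 and a Spearman rho of 0.911 to 0.977. These are correlations across genes, which are not independent replicates, and no test is given. The largest span of ranks over the 3 genotypes was that of UTP7, which was 35th in WT, 23rd in Pcf11-13 and 30th in Pcf11-DNL. Next came ENP1 at 22nd, 31st and 21st, UTP20 at 34th, 28th and 38th, and UTP21 at 24th, 19th and 29th. Shorter genes had somewhat higher ratios, with r = -0.33 and rho = -0.22 between log2 ratio and log2 length over the 50 genes, again as a description.

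**Figure D2:**
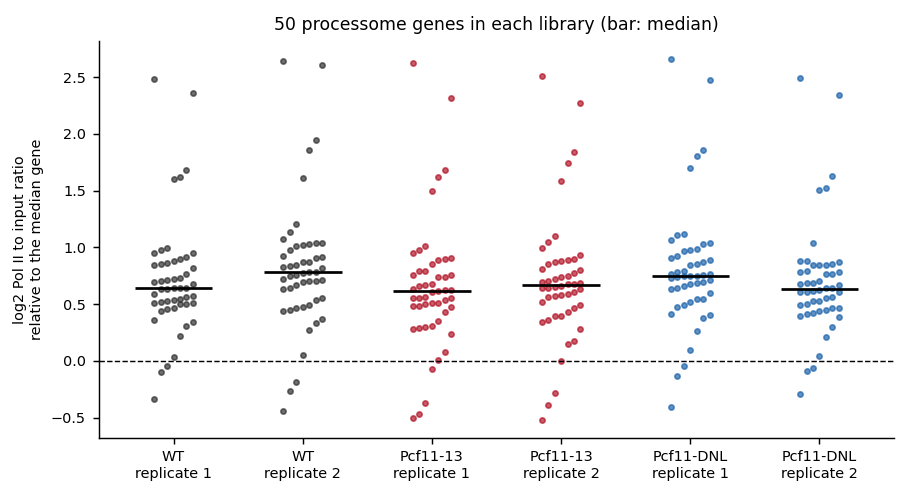
Log2 Pol II to input ratio of the 50 genes in each of the 6 Pol II libraries, relative to the median gene of that library (dashed line). Each point is a gene and the bar is the median, which lies between 0.61 and 0.78 in all 6 libraries.

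Other ribosome assembly genes also lay above the median gene, by differing amounts. In a list of 32 other small-subunit factors the median WT ratio was 1.52-fold with 12.5% above 2-fold, and in a list of 60 large-subunit factors it was 1.81-fold with 31.7% above 2-fold. All 32 and all 60 lay above the median gene, beside 47 of the 50 processome genes. No test was made between these lists.

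The libraries themselves differed in ways that touch these values. The SD of log2 Pol II coverage over all genes was 0.928 in WT replicate 1 and 0.918 in Pcf11-DNL replicate 2, and 1.08 to 1.19 in the other 4 libraries. The processome genes, which lie above the median gene, stood lower in those 2 libraries than in their partners: the median member was 1.6-fold above the median gene's scaled coverage in WT replicate 1 and 1.69-fold in WT replicate 2, and 1.69-fold and 1.58-fold in Pcf11-DNL replicates 1 and 2. In Pcf11-13 it was 1.52-fold and 1.6-fold. The part of this range in the differences between genotypes was not tested, beyond the values given without these libraries. PCF11 (YDR228C), the targeted gene, had a scaled Pol II coverage of 154 and 168 in WT, then 759 and 847 in Pcf11-13, then 158 and 158 in Pcf11-DNL. Its log2 difference between Pcf11-13 and WT was 2.31, with a limma adjusted p of 2.1e-05. The input coverage of PCF11 was 1.47-fold higher in Pcf11-13 than in WT (limma adjusted p 0.00023). Like the tags, these differences cannot be told apart from the pcf11-13 allele, and their part in the comparisons was not tested.

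Pcf11-13 and WT cells were compared first, to see whether Pol II over these genes differed with the pcf11-13 allele. No processome gene passed the test. With limma and Benjamini-Hochberg adjustment over 6642 genes, 0 of 50 had an adjusted p under 0.05, beside 1.13% of all genes tested. At an unadjusted p under 0.05 there were 2 of 50, FAF1 and BUD23, both lower in Pcf11-13, beside 12.6% of all genes.

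Small differences leaned to lower values. Of the 50 genes, 43 had a negative log2 difference and 7 a positive one, beside 3586 and 3056 of all 6642 genes tested. The median of the 50 was -0.07 against -0.02 over all genes tested, with a range from -0.27 to 0.12. The Pcf11-13 libraries both lay below both WT libraries in 15 genes, beside 20.5% of all genes, and both above in 2 genes, beside 19.6%. By role the median difference was -0.13 for the 2 methyltransferase genes, -0.12 for the Mpp10 complex, -0.11 for the helicases, -0.09 for box C/D and U3 proteins, -0.06 for UTP-B, and -0.04 for UTP-A and for the other factors. Single libraries moved these medians. Without WT replicate 1 they were -0.18 for box C/D and U3 proteins and for UTP-B, -0.13 for UTP-A and -0.10 for the other factors, and without WT replicate 2 they turned to 0.02 for box C/D and U3 proteins, 0.03 for UTP-B and 0.04 for UTP-A. The other factors turned to 0.00 without Pcf11-13 replicate 1, and the methyltransferase genes ran from -0.19 to -0.06 without Pcf11-13 replicate 1 or 2. The helicase and Mpp10 medians stayed between -0.13 and -0.08 with any 1 library left out. The median over the 50 genes was -0.13 without WT replicate 1 and -0.01 without WT replicate 2, and -0.02 without Pcf11-13 replicate 1. In the other lists, 49 of 60 large-subunit factors and 21 of 32 other small-subunit factors had a negative difference, and 0 of either passed the test.

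FAF1 (YIL019W, chromosome IX, 315093 to 316133), which encodes a factor needed for 18S rRNA maturation, had the lowest value of the 50 in this comparison. Its scaled Pol II coverage was 119 and 109 in WT, then 89.8 and 99.2 in Pcf11-13, then 119 and 122 in Pcf11-DNL. Both Pcf11-13 libraries lay below the other 4. The log2 difference from WT was -0.27 (SE 0.08, 95% interval -0.45 to -0.08), with a limma adjusted p of 0.186. Without WT replicate 2 the difference was -0.33 with an adjusted p of 0.0054, in a setting that called 18.3% of all genes, and without WT replicate 1 it was -0.20 with an adjusted p of 0.233. Over all 18 alternatives the adjusted p of FAF1 ran from 0.0054 to 0.901. Input coverage of FAF1 was 154 to 159 in the 6 input libraries.

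ROK1 (YGL171W, chromosome VII, 182390 to 184084), a helicase gene, had 155 and 158 in WT, then 133 and 146 in Pcf11-13, then 164 and 152 in Pcf11-DNL as its scaled Pol II coverage. FAL1 (YDR021W, chromosome IV, 486804 to 488003), a helicase gene related to translation factor eIF4A, had 126 and 118 in WT, then 105 and 113 in Pcf11-13, then 128 in both Pcf11-DNL libraries. Both genes were lower in Pcf11-13 than in all 4 other libraries. Their log2 differences from WT were -0.17 and -0.16, with 95% intervals of -0.35 to 0.01 and -0.33 to 0.01. Without Pcf11-13 replicate 1 both were -0.10.

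BUD23 (YCR047C, chromosome III, 210718 to 211545) encodes the enzyme that methylates a guanosine of 18S rRNA. Its scaled Pol II coverage was 158 and 157 in WT, then 144 and 136 in Pcf11-13, then 149 and 153 in Pcf11-DNL. The 3 genotypes did not overlap, with WT highest and Pcf11-13 lowest. The log2 difference between Pcf11-13 and WT was -0.17 (SE 0.07, 95% interval -0.33 to -0.01, limma adjusted p 0.38).

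On the other side stood UTP7 and ECM16. UTP7 (YER082C, chromosome V, 324272 to 325936), a processome scaffold gene, had a scaled Pol II coverage of 168 and 185 in WT, then 189.7 and 194 in Pcf11-13, then 189 and 184 in Pcf11-DNL. ECM16 (YMR128W, chromosome XIII, 523696 to 527499), whose helicase removes U3 RNA from the precursor, had 127 and 131, then 132 in both Pcf11-13 libraries, then 134 and 131. The log2 difference was 0.12 for UTP7 (95% interval -0.06 to 0.30) and 0.03 for ECM16 (-0.12 to 0.19). Without WT replicate 1 they were 0.05 and 0.01, and without WT replicate 2 they were 0.19 and 0.06. The ECM16 value turned to -0.06 when input was subtracted.

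**Figure D3:**
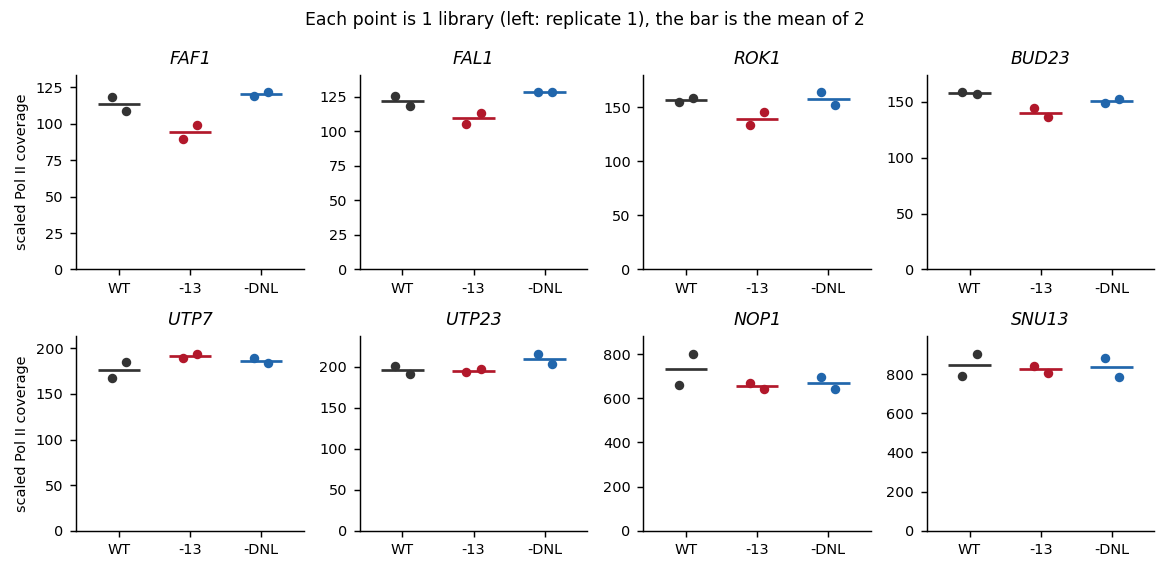
Scaled Pol II coverage of 8 of the genes in the 6 Pol II libraries, on axes that start at 0. Points are libraries, with replicate 1 at the left, and bars are means of 2; FAF1 has 89.8 and 99.2 in Pcf11-13 and 109 to 122 in the other libraries.

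Pcf11-DNL and WT cells were compared in the same way. Again 0 of 50 genes passed limma's adjusted p of 0.05, beside 0.0151% of all genes tested, and 0 of 50 had an unadjusted p under 0.05, beside 1.61%. Of the 50 genes, 32 had a log2 difference below 0 and 18 above, beside 3341 and 3301 of all genes. Their median log2 difference was -0.02 against 0.00 over all genes, with a range from -0.12 to 0.09. The sign of this median turned with the scaling, to 0.02 with library means, under which the median over all genes was 0.04, and it was -0.09 without WT replicate 1 and 0.04 without WT replicate 2. Both Pcf11-DNL libraries lay above both WT libraries in 5 genes, beside 9.09% of all genes, and below them in 2, beside 7.60%.

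Among these, UTP23 (YOR004W, chromosome XV, 333592 to 334356), a factor with a PIN-like domain, had a scaled Pol II coverage of 202 and 192 in WT, then 194 and 197 in Pcf11-13, then 216 and 204 in Pcf11-DNL. KRR1 (YCL059C, chromosome III, 22429 to 23379), which encodes a KH-domain protein, had 183 and 179 in WT, then 170.2 and 183 in Pcf11-13, then 193 and 185 in Pcf11-DNL. In both genes the gap between the WT and Pcf11-DNL libraries was smaller than the gap between replicates within Pcf11-DNL. The log2 differences from WT were 0.09 for UTP23, 0.08 for FAF1, 0.07 for FAL1 and 0.06 for KRR1, and the interval of each included 0. Without WT replicate 2 FAF1 had 0.02 and FAL1 0.03, and without WT replicate 1 they had 0.14 and 0.11. Without Pcf11-DNL replicate 1 UTP23 had 0.05 and KRR1 0.03.

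LCP5 (YER127W, chromosome V, 414481 to 415554), a factor bound to the U3 particle, and BUD23 were the 2 genes lower in both Pcf11-DNL libraries. LCP5 had 244 and 253 in WT, then 219 and 229.6 in Pcf11-13, then 242 and 229 in Pcf11-DNL as its scaled Pol II coverage. Its log2 difference from WT was -0.08 (95% interval -0.26 to 0.11), or -0.04 without Pcf11-DNL replicate 2, and that of BUD23 was -0.06 (-0.22 to 0.10). The Pcf11-13 libraries of LCP5 were also below both WT libraries.

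**Figure D4:**
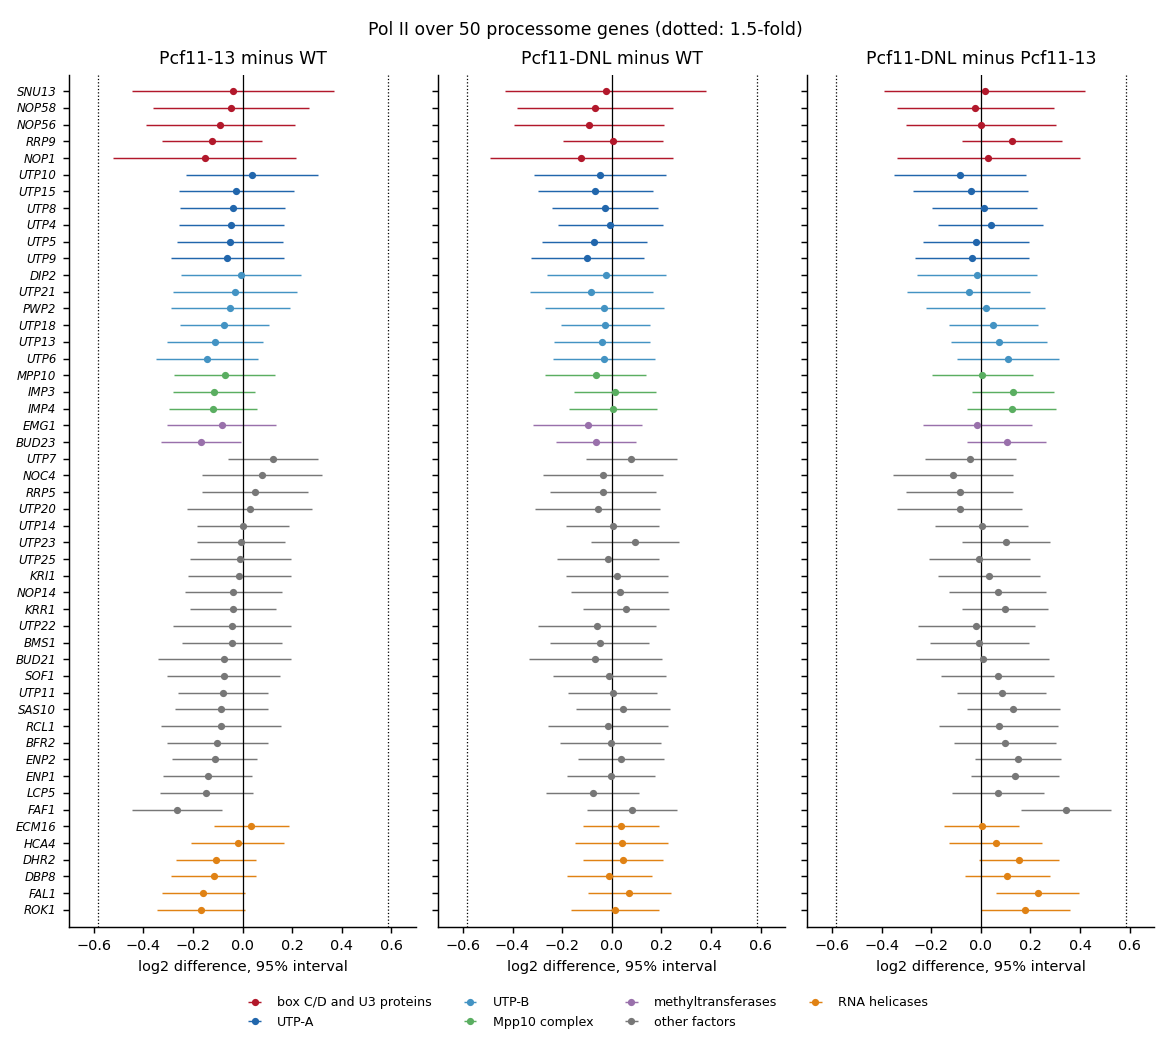
Log2 differences in Pol II with 95% intervals for the 50 genes in the 3 comparisons, coloured by role, with dotted lines at 1.5-fold. No interval reaches a dotted line; the lowest bound is -0.52 and the highest 0.53.

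The comparison of Pcf11-DNL with Pcf11-13 sets the alleles against each other and shares its libraries with the comparisons above. With limma 0 of 50 genes had an adjusted p under 0.05, beside 0.166% of all genes tested. At an unadjusted p under 0.05 there were 3 of 50, FAF1, FAL1 and ROK1, all higher in Pcf11-DNL, beside 11% of all genes. The median log2 difference was 0.04 against 0.00 over all genes. Above 0 lay 34 of the 50 genes and below it 16, beside 3399 and 3243 of all genes. Both Pcf11-DNL libraries lay above both Pcf11-13 libraries in 16 genes, beside 29.1% of all genes, and below them in 1 gene, beside 26.7%. Without Pcf11-DNL replicate 1 the median was -0.03, and without Pcf11-DNL replicate 2 it was 0.10.

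FAF1 had the largest difference, 0.35 on the log2 scale (SE 0.08, 95% interval 0.16 to 0.53, limma adjusted p 0.212). FAL1 followed with 0.23 (0.06 to 0.40, adjusted p 0.312). The next values were 0.18 for ROK1, which was 0.11 without Pcf11-13 replicate 1, and 0.15 for DHR2, and UTP7, the gene with both Pcf11-DNL libraries below, had -0.04. Whether these 2 genes passed depended on the setting. When only Pcf11-DNL and Pcf11-13 entered the limma fit, 2 of 50 genes (4%) passed, FAF1 with an adjusted p of 0.00023 and FAL1 with 0.029, beside 666 of 6642 genes in all. The same 2 genes passed when either WT library was left out, FAF1 with 0.000197 and 0.0002 and FAL1 with 0.028 each, beside 10.2% of all genes in each case. The share of members passing in these settings lay below that of all genes. When both libraries of narrow range were left out FAF1 alone of the 50 passed, with a difference of 0.32 and an adjusted p of 0.034, beside 6.09% of all genes. With all libraries and a coverage minimum of 50 FAF1 passed with an adjusted p of 0.045, beside 0.72% of all genes. With only 1 of the 4 mutant libraries left out, whichever it was, neither gene passed. Over all 18 alternatives the adjusted p ran from 0.000197 to 0.977 for FAF1 and from 0.028 to 0.983 for FAL1. The 6 helicase genes had a median difference of 0.13, from 0.00 for ECM16 (95% interval -0.15 to 0.15) to 0.23 for FAL1, and none of the 6 passed limma's test with all libraries.

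The depth of the design limits these statements in size. In each of the 3 comparisons all 50 intervals lay within 1.5-fold in either direction, with a lowest bound of -0.52 and a highest of 0.53 on the log2 scale. The median interval was 0.20 wide on either side of its value, and the widest was that of SNU13 with 0.41. The intervals excluded 0 for 2 genes between Pcf11-13 and WT, 0 genes between Pcf11-DNL and WT and 3 genes between the mutants, before any adjustment for the number of genes. An adjusted p above the threshold does not show that a gene had the same level.

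Input DNA over the genes was even. Scaled input coverage of the 50 genes ran from 124 to 181 over the 6 libraries, and their library medians from 148 to 151. With limma 0 of 50 genes had an adjusted p under 0.05 in the input between Pcf11-13 and WT, beside 0.256% of all genes tested, between Pcf11-DNL and WT, beside 0%, and between Pcf11-DNL and Pcf11-13, beside 0.256%. At an unadjusted p under 0.05 there were 3 genes, beside 5.78%, then 0, beside 3.49%, then 2, beside 5.71%. ECM16 had the largest input difference between Pcf11-13 and WT, 0.09 on the log2 scale.

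Because Pcf11 acts at 3′ ends, the genes next to the members were also read, with strands taken from the systematic names and distances from the RefSeq table of genes. A same-strand gene ended within 500 bp upstream of 23 of the 50 genes, a tRNA gene in the case of UTP20. The median log2 difference of these 23 between Pcf11-13 and WT was -0.07, beside -0.04 for the other 27. The largest value among the 23 was 0.12, that of UTP7. Of the genes upstream of members, on either strand, YEH1 alone passed limma's test between Pcf11-13 and WT, beside 1.13% of all genes tested. At most 1 upstream gene was tested for each of the 50 members, so 1 call cannot show a departure from that share. YEH1 had 0.43 and a limma adjusted p of 0.042, and lies 267 bp upstream of SOF1 (YLL011W), which itself had -0.08. Past the 3′ ends, 18 members had a next gene on the same strand within 500 bp. None of these 18 passed limma's test between Pcf11-13 and WT, and their median difference was -0.04. Of the 18, 5 had a positive difference and 13 a negative one.

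The highest of the 18 was PRP31, a splicing factor gene 269 bp past UTP22 (YGR090W), with 0.29 and a limma adjusted p of 0.097. Convergent genes lay past 29 members, of which 28 were tested, and 1 passed, beside 1.13% of all genes tested. YGR127W, which ends 213 bp from the 3′ end of UTP8 (YGR128C), was 0.46 higher on the log2 scale in Pcf11-13, with a limma adjusted p of 0.045. UTP8 itself differed by -0.04. Both passing neighbours, YEH1 and YGR127W, lay close to the threshold and were named after their values were seen. Their values without single libraries are not given. SER3, a serine synthesis gene 176 bp from the 3′ end of UTP7, had 0.46 and a limma adjusted p of 0.083. The convergent neighbours did not lean to higher values. Of the 28 tested, 13 had a positive difference and 15 a negative one, with a median of -0.02. They ran from -0.57 for SPO74, past ROK1, to 0.54. The libraries do not separate strands, so reads past the end of a member and reads of its convergent neighbour cannot be told apart.

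In Pcf11-DNL against WT, 0 of the 18 same-strand and 0 of the 28 convergent neighbours passed. Their medians were 0.01 and 0.02, with ranges of -0.06 to 0.10 and -0.23 to 0.13. No member shared an upstream region with another of the 50. NOC4 (YPR144C) is divergent from the small nucleolar RNA gene SNR45, 308 bp away, and its own scaled Pol II coverage was 215 and 248 in WT, then 235 and 253 in Pcf11-13, then 241 and 210.4 in Pcf11-DNL, with overlapping genotypes.

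**Figure D5:**
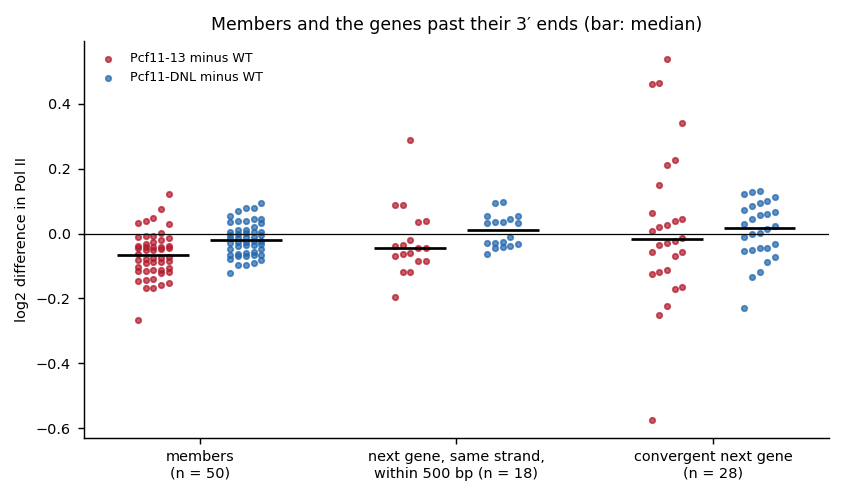
Log2 difference in Pol II from WT for the 50 members, for the next gene on the same strand within 500 bp of a member (18 genes) and for the convergent next gene (28 genes). Points are genes and bars are medians; the members span -0.27 to 0.12 in Pcf11-13, and the convergent neighbours -0.57 to 0.54.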

How the data were processed

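The 12 libraries (6 Pol II, 6 input) were grouped by sample title. Values were deposited as mean read coverage per gene, a signal the authors had not scaled to depth. Trimmomatic 0.38, BWA 0.7.17-r1188, deepTools 3.1.2 and sacCer3 are listed in the submitters' processing notes, with no role or order, and the way coverage was averaged within genes is not given in the sources used here. Mean Pol II coverage per gene was 140.1 to 300.7 and mean input coverage 132 to 189.1.

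The processome genes, the other lists, the tests and the rule for named genes were chosen with earlier results of these data known. The rule gave values in every library for members passing a test, for up to 4 rises and 4 falls per comparison among members whose groups did not overlap, for the 5 highest and 3 lowest WT ratios, and for PCF11. RRP9 and NOC4 and the neighbouring genes named were chosen after their values were seen.

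Coverage was divided by trimmed-mean (TMM) factors, without weights, after a trim of 30 percent by log ratio and 5 percent by mean level. Log2 of scaled coverage plus a pseudocount of 1 was fitted with limma 3.58.1 (R 4.3.3) and its mean-variance trend over all 6 libraries of an assay. Genes entered with coverage of 10 or more in 2 or more libraries. Fold changes on this scale understate those of low genes. The reference library of the scaling was first chosen by raw coverage. After its calls were seen (86, 1 and 12 of all genes in the 3 comparisons), the choice was changed to coverage relative to the library total, as TMM usually does, which gave 75, 1 and 11. The method was run on simulated data with noise drawn separately for each gene and library. Those data held no library of narrow range, and no rate of recovery is given for differences as small as those of the members. Alternatives were other scalings, pseudocounts, filters, sets of libraries, a replicate block and input subtraction. Promoter motifs were not analysed here. Of the 6650 genes, 5976 matched a RefSeq locus tag.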

Additional observations from a re-analysis of the deposited data

How the results depend on the processing

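Between Pcf11-DNL and WT, 0 of 50 genes were called in all 18 alternatives, as in 16 of 18 between Pcf11-13 and WT and 12 of 18 between the mutants. With 1 library left out in turn, the count was 0 to 1 for Pcf11-13 against WT and 0 to 2 between the mutants. There the lone library of a genotype is assumed to vary like the other groups. Between the mutants it was 1 with a coverage of at least 50, 2 with 2 genotypes only and 1 with both narrow libraries left out. The genes were FAF1 and FAL1. The number of all genes called ran from 8 to 1215, 0 to 401 and 1 to 679 over these settings, so calls depend on the setting.

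Same-numbered replicates did not deviate together (r = -0.09 for WT and Pcf11-13, -0.89 for WT and Pcf11-DNL, -0.07 for the mutants). These correlations cannot show whether the replicate numbers pair the libraries. The 2 libraries of narrow range, WT replicate 1 and Pcf11-DNL replicate 2, bear different numbers. With a replicate block, 0 of 50 genes were called in each comparison, and 107, 3 and 20 of all genes. With the WT numbers crossed, an alternative chosen after seeing the data, 1 of 50 genes (2%) was called in Pcf11-13 against WT, beside 5.27% of all genes, and 1 between the mutants, beside 3.54%. With the reference library of the scaling chosen by raw coverage, the version run first, 0 of 50 were called in each.

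Median differences of the 50 genes moved with quantile normalization to -0.13 for Pcf11-13 against WT and to 0.12 between the mutants. For Pcf11-DNL against WT the median ran from -0.094 to 0.045 with 1 library left out. The ECM16 difference between Pcf11-13 and WT reversed from 0.034 to -0.060 with input subtracted, which takes away its input difference of 0.09. UTP7 between the mutants reversed to 0.0046 with library means and 0.042 with quantile normalization. PCF11 in Pcf11-DNL reversed to 0.015 with library means and ran from -0.090 to 0.035 with 1 library left out. Library means shift every gene of a comparison by nearly the same amount, as in FAF1 between the mutants, from 0.345 to 0.391. The causes of the other moves were not tested. The other 292 of 306 settings of named members kept direction and side of the threshold, and 11 passed it.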
